A study of Brachypodium distachyon with 6 samples.

Results

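Of the 19538 genes listed in roots of *Brachypodium distachyon*, 88 were strongly lowered after the shoot was pruned. These genes were chosen by their measured values. In each of them the highest of the 3 pruned libraries held at least 1 RPM (reads of a gene per 1000000 reads counted on the listed genes), and the lowest of the 3 intact libraries held at least 3 times that value. The contrast between pruned and intact roots therefore defines the 88 genes, and their values are given as a description with no test. The RPM levels of the 88 genes, in both groups, are part of the choice too. Every library was used in the choice of the 88 genes. Their place among neighbouring identifiers and their annotation were not used. The annotation lists, however, hold only genes that the study had called changed on these same libraries.

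RNAseq libraries were made from roots of the inbred grass line Bd21, 3 of them from pruned plants and 3 from intact plants. All plants were 2-week-old seedlings of the same line grown on solid MS medium with sucrose. In each box some seedlings were cut with scissors so that a stub of the shoot remained, and their uncut neighbours served as the intact controls. Roots of both groups were collected 2 days after the cut, as 3 biological replicates each.

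Roots generally depend on sucrose sent down from the leaves, but here the medium also held sucrose. Removing leaf area can reduce the supply from the leaves. It also removes a source of hormones such as auxin, which moves from the shoot to the root tip through efflux carriers. Neither sucrose nor hormones were measured in these libraries. Sucrose that reaches the root is split and enters glycolysis, which feeds respiration and growth. The RNA came from whole roots, in which fewer cells of a type and less RNA per cell cannot be told apart.

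The reads counted on the listed genes, recovered from the RPM, were 17278649, 28420464 and 26518230 in the pruned libraries. In the intact libraries they were 21292543, 18790356 and 18150223. Pruned libraries 2 and 3 rested on R1 reads only, whereas the other 4 libraries rested on paired-end reads. Over all genes, limma with Benjamini-Hochberg adjustment called 337 genes (1.72%) at least 2-fold lower in pruned roots and 496 genes (2.54%) at least 2-fold higher, at an adjusted p of at most 0.05. Without a fold threshold, 3941 genes (20.2%) were lower and 5889 genes (30.1%) were higher. All 88 strongly lowered genes were among the 337 genes called lower, which the choice itself brought about. They made up 26.1% of these calls. Their log2 fold changes lay between -5.64 and -1.60 with a median of -1.98, where the median over all genes was 0.04.

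The strongly lowered genes had a median of 12.6 RPM in pruned roots and 57.7 RPM in intact roots, where the medians of all listed genes were 17.1 RPM and 16.5 RPM. They thus lay below the median of all genes in pruned roots and above it in intact roots, a contrast that the choice itself fixes. In pruned roots they kept between 1.35% and 31.6% of their intact mean, with a median of 24.5%. Most of them kept more than 20%, 25 genes kept less than that, and only 2 genes kept less than 10%. Replicates were close, with a median coefficient of variation of 5.88% in pruned roots and 4.92% in intact roots. The choice sets the highest pruned value against the lowest intact value and so favours close replicates. This spread is thus part of the choice, and it is not given for all listed genes. RPM is not corrected for gene length, so it ranks genes by their reads and not by their number of transcripts.

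**Figure D1:**
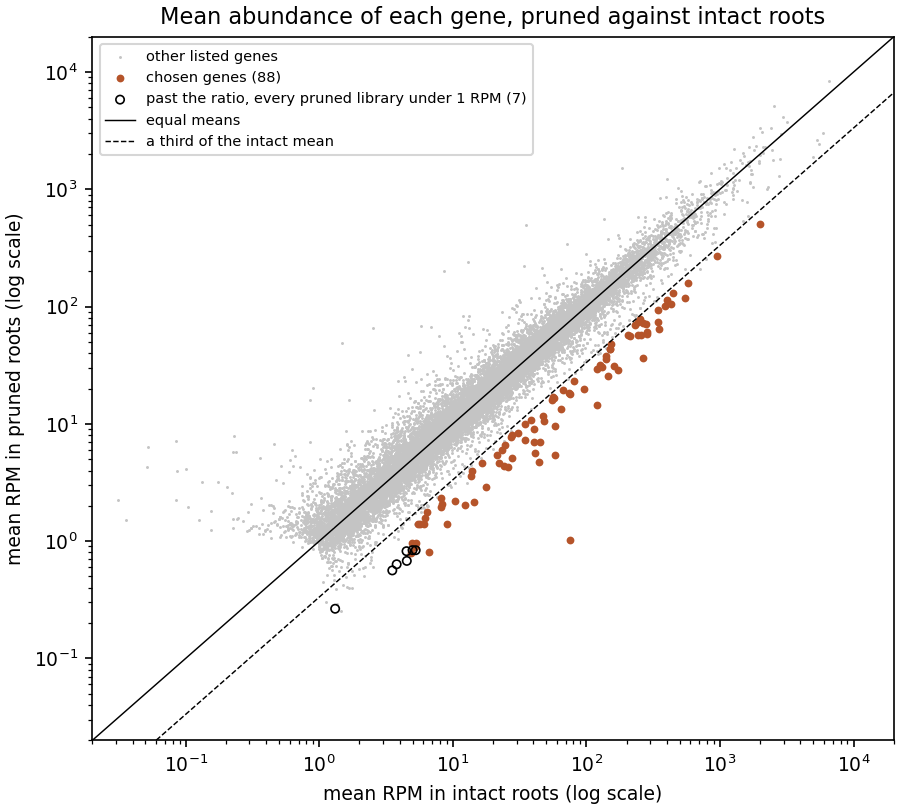
Each point is 1 gene, with its mean RPM in intact roots on the x axis and in pruned roots on the y axis, both on log scales, and the 88 strongly lowered genes are filled in colour. The solid line marks equal means and the dashed line a 3-fold lower mean in pruned roots. Bradi3g54950 lies far below the other coloured points at 1.35% of its intact mean, and 1 gene with no reads in intact roots is not drawn.

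Bradi4g22620 was the most abundant of the 88 genes. It held 493, 504 and 514 RPM in the pruned libraries, against 2104, 1984 and 1895 RPM in the intact libraries. The groups were far apart, and the pruned mean of 504 ± 10.3 RPM was 25.3% of the intact mean of 1994 ± 105 RPM (SD, n = 3 each). The gene ranked 230, 231 and 224 among all genes in the pruned libraries, against 20, 25 and 24 in the intact libraries. The next identifier, Bradi4g22630, was also the next in abundance, with 260, 271 and 278 RPM in the pruned libraries and 1001, 952 and 898 RPM in the intact libraries. Its rank was 618, 585 and 556 in pruned roots, against 77, 82 and 90 in intact roots. In intact roots these adjacent genes thus belonged to the 100 genes with the most reads, and in pruned roots neither did.

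Bradi1g25530 followed with 163, 157 and 156 RPM in the pruned libraries, against 574, 548 and 600 RPM in the intact libraries. Bradi3g43160 had 118, 122 and 114 RPM in the pruned libraries, against 533, 537 and 571 RPM in the intact libraries. Although its intact level was close to that of Bradi1g25530, it kept less, at 21.5% of the intact mean against 27.6%. Bradi2g11890 had 136, 131 and 129 RPM in the pruned libraries and 426, 448 and 455 RPM in the intact libraries. Bradi3g10520 had 106, 104 and 106 RPM in the pruned libraries and 419, 442 and 430 RPM in the intact libraries. In each of these genes the replicates were tight and the groups did not overlap, as the choice requires.

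Bradi1g64610, of a group annotated as universal stress proteins, had 124, 106 and 112 RPM in the pruned libraries, against 425, 395 and 386 RPM in the intact libraries. Bradi2g56850, annotated with monocarboxylic acid metabolism, had 106, 98.8 and 98.5 RPM in the pruned libraries, against 380, 361 and 422 RPM in the intact libraries. Of the 10 most abundant genes, Bradi1g01170 kept the least. This gene, annotated with response to jasmonic acid and with transfer of glycosyl groups, had 65.4, 64.1 and 63.6 RPM in the pruned libraries and 362, 331 and 352 RPM in the intact libraries, so that 18.5% remained. Bradi1g51080 closed the 10, with 77.5, 72.2 and 73.2 RPM in the pruned libraries and 326, 355 and 349 RPM in the intact libraries.

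The gene that kept the least of all 88 was Bradi3g54950. It had 1.10, 1.02 and 0.943 RPM in the pruned libraries, which are 19, 29 and 25 reads, against 75.0, 73.4 and 78.2 RPM in the intact libraries. Its intact mean was 74.0 times its pruned mean. Bradi1g17961 had 5.96, 5.24 and 5.13 RPM in the pruned libraries, against 56.3, 61.8 and 57.9 RPM in the intact libraries, a 10.8-fold difference of the means. These were the only genes below 10% of the intact mean.

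Bradi3g52230 had 4.75, 4.75 and 4.64 RPM in the pruned libraries, against 42.6, 47.1 and 43.0 RPM in the intact libraries. Bradi1g22010 had 15.0, 13.9 and 14.7 RPM in the pruned libraries, against 120, 127 and 113 RPM in the intact libraries. Bradi5g23140 had 37.2, 35.3 and 37.0 RPM in the pruned libraries, against 271, 259 and 269 RPM in the intact libraries. These genes kept 10.7%, 12.1% and 13.7% of their intact means in that order, and each rested on at least 82 reads in every pruned library. Bradi5g17281 had 5.73, 5.35 and 5.69 RPM in the pruned libraries and 39.5, 38.9 and 45.7 RPM in the intact libraries. Bradi2g41840 had 6.54, 6.79 and 7.62 RPM in the pruned libraries and 46.1, 43.3 and 44.8 RPM in the intact libraries.

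The remaining genes among the 10 that kept the least were of low abundance, and their pruned values rested on few reads. Bradi3g45350 had 0.579, 1.02 and 0.830 RPM in the pruned libraries, which are 10, 29 and 22 reads, against 7.14, 6.28 and 6.39 RPM in the intact libraries. Bradi1g29750 had 1.91, 1.86 and 2.68 RPM in the pruned libraries and 14.7, 16.2 and 12.6 RPM in the intact libraries. Bradi5g25021 had 1.91, 1.20 and 1.09 RPM in the pruned libraries and 9.82, 9.15 and 8.37 RPM in the intact libraries. In these genes the pruned replicates differed by more, relative to their mean, than in the abundant genes. Over all 88 genes the lowest read number was 10 in a pruned library and 86 in an intact library, and 29 genes had fewer than 100 reads in a pruned library.

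**Figure D2:**
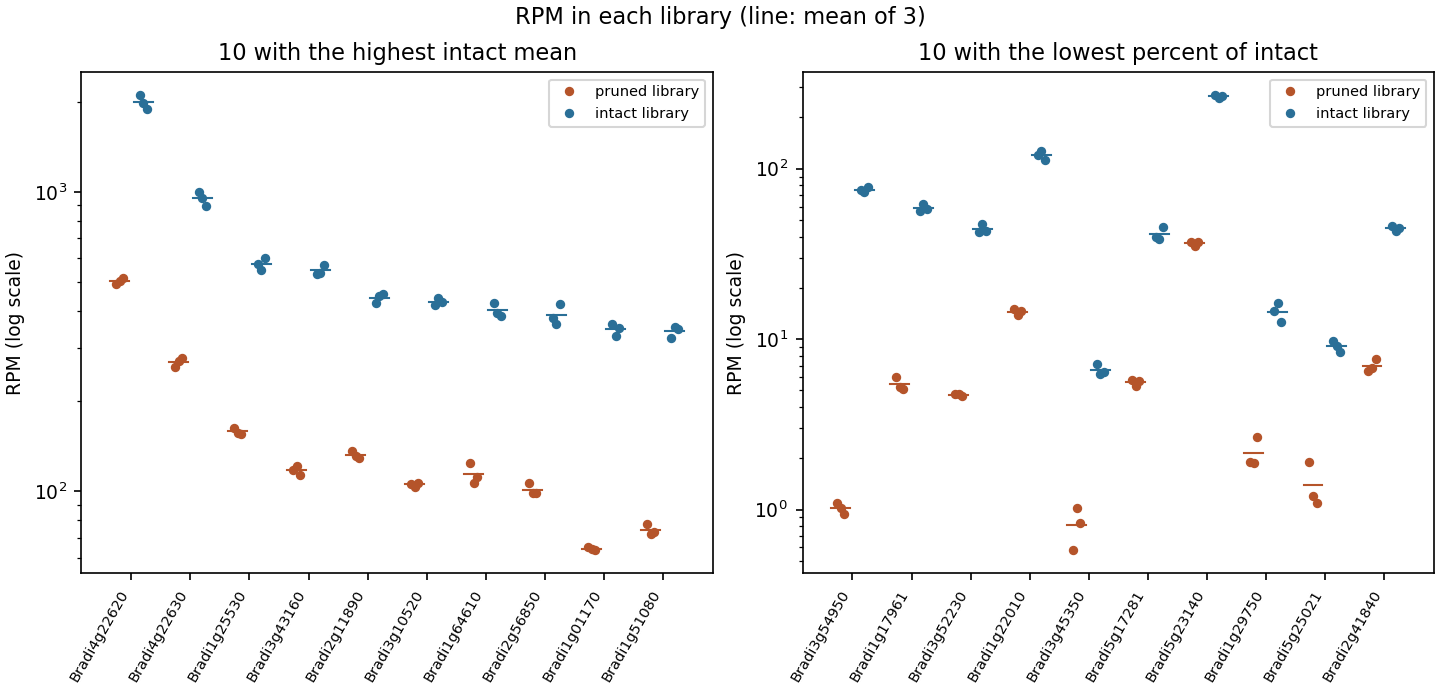
Points are the RPM of each library on a log scale, pruned libraries to the left of intact libraries for each gene, and short lines are the means of 3 libraries. The left panel holds the 10 genes with the highest intact mean and the right panel the 10 genes that kept the lowest percent of it, of which Bradi3g54950 fell to about 1 RPM.

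An annotation was at hand for 11 of the 88 genes, and the other 77 are named by identifier only. Of the annotated genes, 3 belonged to a group of universal stress proteins. These small nucleotide-binding proteins occur in bacteria and plants and are known for their response to stresses such as drought and oxygen shortage. Bradi2g11610 had 29.4, 28.0 and 29.1 RPM in the pruned libraries, against 166, 174 and 178 RPM in the intact libraries, and it kept the least of the 3 genes at 16.7%. Bradi1g64610, given above, kept 28.4%. Bradi1g18080 had 78.7, 74.6 and 80.1 RPM in the pruned libraries and 243, 251 and 257 RPM in the intact libraries, and kept 31.1%.

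The groups and terms used here list only genes that the study had already called changed on these same libraries. That each listed gene is lower or higher is thus fixed by the list, genes of a term that did not change are absent from it, and its direction is no independent evidence. Over all genes, 20.2% were lower and 30.1% were higher. The group of universal stress proteins lists 6 genes, of which 5 carry that name. Of these 6 genes, 5 were lower and 1 was higher in pruned roots. Bradi2g23560 was at 42.1 ± 1.06 RPM in pruned roots and 75.0 ± 4.89 RPM in intact roots (SD, n = 3 each), with a log2 fold change of -0.82 (SE 0.06, limma adjusted p = 1.6e-11). Bradi4g05210 was more abundant and lower by less, with 444 ± 8.12 RPM in pruned roots and 650 ± 31.8 RPM in intact roots (log2 fold change -0.55, SE 0.04, limma adjusted p = 3.1e-10). Bradi1g08517 was higher, with 14.9 ± 0.980 RPM in pruned roots and 9.02 ± 0.507 RPM in intact roots (log2 fold change 0.69, SE 0.09, limma adjusted p = 6.6e-07). The listed genes of the group thus moved in both directions.

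Sugar breakdown was represented by Bradi3g22340. It is annotated as a diphosphate-fructose-6-phosphate 1-phosphotransferase, the enzyme that uses pyrophosphate in place of ATP to phosphorylate fructose 6-phosphate at the entry of glycolysis. It had 74.5, 75.2 and 74.1 RPM in the pruned libraries, against 250, 236 and 246 RPM in the intact libraries. The pruned replicates were almost equal, and 30.5% of the intact mean remained. The same activity is annotated for Bradi1g44460, which kept 61.6%, with 239 ± 1.83 RPM in pruned roots and 387 ± 15.2 RPM in intact roots (SD, n = 3 each). Its log2 fold change was -0.70 (SE 0.04, limma adjusted p = 2.8e-12).

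Under the wider term of phosphofructokinase activity 4 changed genes were listed, and these 4 were lower after pruning. Besides the genes above they were Bradi2g05720, with a log2 fold change of -1.36 (SE 0.05, limma adjusted p = 2.2e-17), and Bradi2g33290, with -1.57 (SE 0.06, limma adjusted p = 3.4e-16). Bradi2g33290 stood outside the choice, with 25.5, 23.5 and 23.4 RPM in the pruned libraries and 71.2, 69.3 and 77.8 RPM in the intact libraries. The list for fructose 6-phosphate metabolism holds the same 4 genes and also Bradi5g18670, which was higher, at 39.3 ± 8.35 RPM in pruned roots and 17.4 ± 1.62 RPM in intact roots (log2 fold change 1.14, SE 0.11, limma adjusted p = 3.9e-09).

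Bradi5g19266 is annotated with the generation of precursor metabolites and energy. It had 74.0, 71.0 and 72.8 RPM in the pruned libraries, against 258, 271 and 264 RPM in the intact libraries. Under this term 17 changed genes were listed, of which 12 were lower and 5 were higher in pruned roots. Bradi5g19266 and Bradi3g22340 were the only strongly lowered genes among them. The median log2 fold change of the 17 listed genes was -0.69.

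Of the genes annotated with hormones, Bradi2g52640 is named a probable auxin efflux carrier component 5. Proteins of this family carry auxin out of the cytoplasm, and in *Arabidopsis thaliana* the carrier of that number lies in the membrane of the endoplasmic reticulum. Bradi2g52640 had 4.92, 5.59 and 4.71 RPM in the pruned libraries and 29.1, 26.2 and 28.2 RPM in the intact libraries. Bradi3g09110, annotated with hormone transport, had 7.41, 9.64 and 10.1 RPM in the pruned libraries and 45.1, 38.8 and 38.1 RPM in the intact libraries. Pruned library 1 was the lowest and intact library 1 the highest for this gene. Bradi3g56360, annotated as an auxin-independent growth promoter, was rare, with 1.56, 2.04 and 1.66 RPM in the pruned libraries and 6.34, 6.49 and 6.34 RPM in the intact libraries.

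Under hormone transport 7 changed genes were listed, of which 4 were lower and 3 were higher in pruned roots. Next to Bradi3g09110 the largest fall in it was that of Bradi4g21220 (log2 fold change -1.27, SE 0.09, limma adjusted p = 1.7e-11). Under response to jasmonic acid, a wound hormone, 12 changed genes were listed, of which 2 were lower and 10 were higher. Bradi1g01170 was lower by far more than the other of the 2 genes, whose log2 fold change was -0.58, and the median of the 12 listed genes was 0.81. Of the genes annotated as sialyltransferases, known from animals as enzymes that add sialic acid to sugar chains, Bradi5g15097 had 7.47, 6.97 and 7.43 RPM in the pruned libraries and 37.6, 31.1 and 35.7 RPM in the intact libraries. The other changed gene listed under that term, Bradi3g01700, was also lower, at 5.04 ± 0.540 RPM in pruned roots and 7.41 ± 0.298 RPM in intact roots (SD, n = 3 each, log2 fold change -0.52, SE 0.11, limma adjusted p = 4.9e-04).

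Together the 88 genes held 3268, 3234 and 3242 RPM in the pruned libraries, against 13213, 13127 and 13173 RPM in the intact libraries. This is 0.325% ± 0.00181 of all reads in pruned roots and 1.32% ± 0.00432 in intact roots (SD, n = 3 each), a loss of 0.992 percentage points or 9923 RPM. The sum in pruned roots was 24.7% of the sum in intact roots. Over all listed genes, 8685 had a lower mean in pruned roots and lost 116380 RPM in all, of which the 88 genes held 8.53% while they are 0.450% of the listed genes. The choice favours genes that lost most of their reads, so this share is a description of it. Applying the same rule upwards gave 65 genes with 5918, 5926 and 5891 RPM in the pruned libraries and 999, 995 and 975 RPM in the intact libraries. These gained 4922 RPM, which is less than the 88 genes lost.

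Counted in RPM, the loss was concentrated in few genes. Each of the 88 genes kept at most 31.6% of its intact mean, so this concentration mostly restates their RPM in intact roots. It is not given for all listed genes. Bradi4g22620 alone accounted for 15.0% of the RPM lost by the 88 genes, and with Bradi4g22630 for 21.9%. The 10 genes with the largest losses held 48.2% of the loss, and the 44 genes with the largest losses held 92.0%. Since each library sums to 1000000 RPM, a loss in some genes is matched by a gain in others, and RPM does not tell a change in the amount of RNA per root.

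The 88 genes fell into 5 classes by their mean in intact roots. The most abundant class held 11 genes with at least 300 RPM, with 1747, 1722 and 1736 RPM in the pruned libraries and 6894, 6708 and 6679 RPM in the intact libraries. They accounted for 50.6% of the loss and kept a median of 26.1%. The class of 100 to 300 RPM held 24 genes with 1163, 1145 and 1142 RPM in the pruned libraries and 4654, 4742 and 4805 RPM in the intact libraries, and accounted for 36.1% of the loss. The class of 30 to 100 RPM held 23 genes with 263, 274 and 273 RPM in the pruned libraries and 1256, 1255 and 1281 RPM in the intact libraries. These lost 10.0% of the total and kept a median of 22.3%, the lowest of the 5 classes.

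Below 30 RPM the genes were still numerous but carried little of the loss. The class of 10 to 30 RPM held 16 genes and 2.51% of the loss, and the class below 10 RPM held 14 genes and 0.713% of it. The class below 10 RPM summed to 20.0, 20.1 and 19.1 RPM in the pruned libraries and 87.8, 93.1 and 90.4 RPM in the intact libraries. By the intact mean, the side on which the choice needs high values, the 88 genes were 2.15% of the 512 genes with at least 300 RPM and 0.185% of the 7561 genes below 10 RPM. By the pruned mean, the side on which the choice needs low values, this order was not seen. There the 88 genes were 0.203% of the 492 genes with at least 300 RPM and 0.426% of the 1643 genes with 100 to 300 RPM. They were 0.483% of the 4757 genes with 30 to 100 RPM, 0.318% of the 5346 genes with 10 to 30 RPM and 0.548% of the 7300 genes below 10 RPM. The choice shapes the shares on both sides, so neither tells how abundance bears on the lowering. The floor of 1 RPM in the pruned libraries took genes from the lowest class only, where 7 genes passed the ratio but lay under it.

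**Figure D3:**
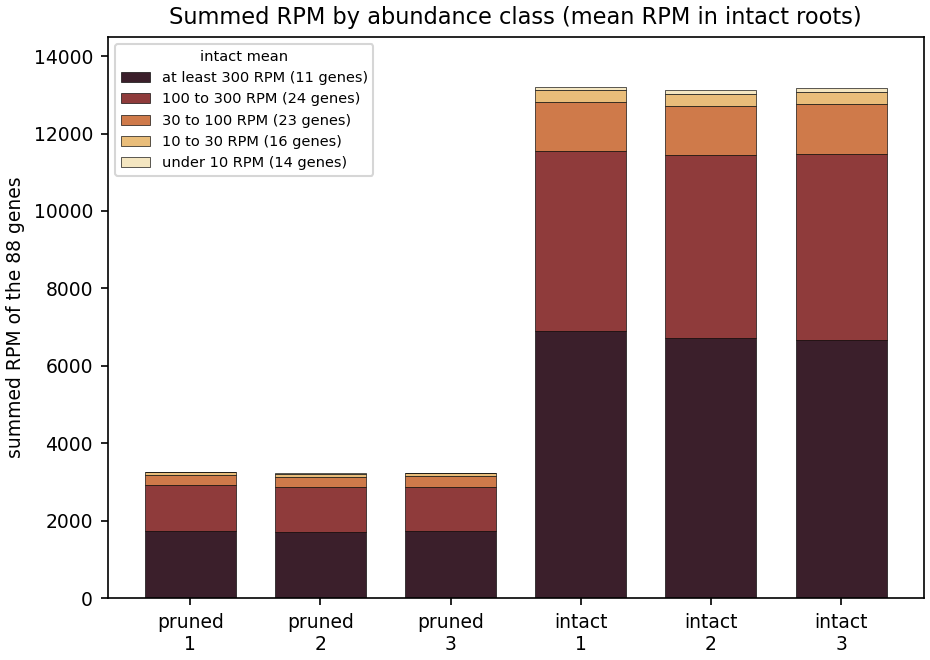
Bars are the summed RPM of the 88 strongly lowered genes in each library, pruned libraries on the left and intact libraries on the right, stacked by the gene's mean RPM in intact roots. The pruned bars reach 3234 to 3268 RPM and the intact bars 13127 to 13213 RPM, and the 35 most abundant genes form most of each bar.

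Genes just inside the ratio differed little from those just outside. Bradi1g18080, Bradi1g09680 and Bradi5g25000 were chosen with a highest pruned value at 33.0%, 33.2% and 33.3% of the lowest intact value. Bradi3g08390, Bradi2g00210 and Bradi1g36490 were left out at 33.4%, 33.6% and 34.1%. At the floor, Bradi3g45350, Bradi4g20127 and Bradi3g54950 had highest pruned values of 1.02, 1.09 and 1.10 RPM, whereas Bradi5g16040, Bradi4g34918 and Bradi3g20160 had 0.984, 0.915 and 0.868 RPM. The 7 genes under the floor summed to 4.75, 4.82 and 4.34 RPM in the pruned libraries and 28.1, 29.1 and 26.6 RPM in the intact libraries, so that they add almost nothing to the loss.

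*B. distachyon* identifiers give the chromosome and then a number that runs along it, so that consecutive identifiers lie near each other. The 88 genes were spread over all 5 chromosomes, with 26 on chromosome 1, 14 on chromosome 2, 25 on chromosome 3, 12 on chromosome 4 and 11 on chromosome 5. These are between 0.314% of the listed genes on chromosome 2 and 0.604% of those on chromosome 5. A neighbour was taken as the next listed identifier on either side, and genes that are not listed can lie between. In this order 9 of the 88 genes stood directly next to another of them, in 5 adjacent pairs, a count with no share for other genes beside it.

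The most abundant of these pairs was Bradi4g22620 with Bradi4g22630, whose values are given above. Bradi1g51080 stood beside Bradi1g51090, which had 29.9, 29.0 and 28.7 RPM in the pruned libraries and 114, 131 and 116 RPM in the intact libraries. Bradi1g18080, of the universal stress protein group, stood beside Bradi1g18090, which had 7.47, 8.06 and 7.50 RPM in the pruned libraries and 25.6, 27.5 and 28.2 RPM in the intact libraries. The remaining pairs formed a run of 3 genes on chromosome 5. In it Bradi5g24990 had 7.12, 6.69 and 5.85 RPM in the pruned libraries and 24.0, 25.8 and 23.3 RPM in the intact libraries. Bradi5g25000 had 15.5, 17.2 and 17.5 RPM in the pruned libraries and 52.5, 58.1 and 61.3 RPM in the intact libraries. The third gene, Bradi5g25021, kept the least, at 15.4% against 26.9% and 29.2% for the other genes of the run.

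Neighbours outside the choice were taken by position, and adjacent genes that met the rule were left out on their own values. The neighbours were read in the same 6 libraries that made the choice. Of the 165 neighbours at a distance of 1, 12 were at least 2-fold lower in pruned roots by limma (7.27%, 95% Wilson interval 4.21% to 12.3%). Of the 19450 genes outside the choice, 249 were (1.28%). Lower by any fold were 58 of the 165 neighbours (35.2%, interval 28.3% to 42.7%), against 3853 of the genes outside the choice (19.8%). At least 2-fold higher were 4 neighbours (2.42%), against 496 of all 19538 listed genes (2.54%). Higher by any fold were 32 neighbours (19.4%, interval 14.1% to 26.1%), against 5889 of all listed genes (30.1%). At distances of 2, 3, 4 and 5 listed genes the share higher by any fold was 37.8%, 29.3%, 30.2% and 25.0%. The intervals cover counting error only, neighbours of one another are not independent, and no set test was made.

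At distances of 2, 3, 4 and 5 listed genes the share lower by at least 2-fold was 1.22%, 0.610%, 1.23% and 0.625%, against 1.28% of all genes outside the choice. Lower by any fold were 19.5%, 25.6%, 16.0% and 20.6% of genes at these distances, against 19.8%, so that the share at a distance of 3 was above that of all genes outside the choice, with an interval of 19.5% to 32.8% that includes it. With neighbours of low abundance left out, 12 of 141 neighbours with at least 3 RPM in intact roots were lower (8.51%), against 220 of 16279 such genes outside the choice (1.35%). Among neighbours whose identifier ends in 0, 9 of 114 were lower (7.89%). The only share beside it is the 1.28% of all genes outside the choice, whatever their identifier. Both subsets were chosen after the data were seen. The strand setting of the count is not given in the sources used here, so reads of overlapping neighbours cannot be told apart, and their part in these shares was not tested.

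**Figure D4:**
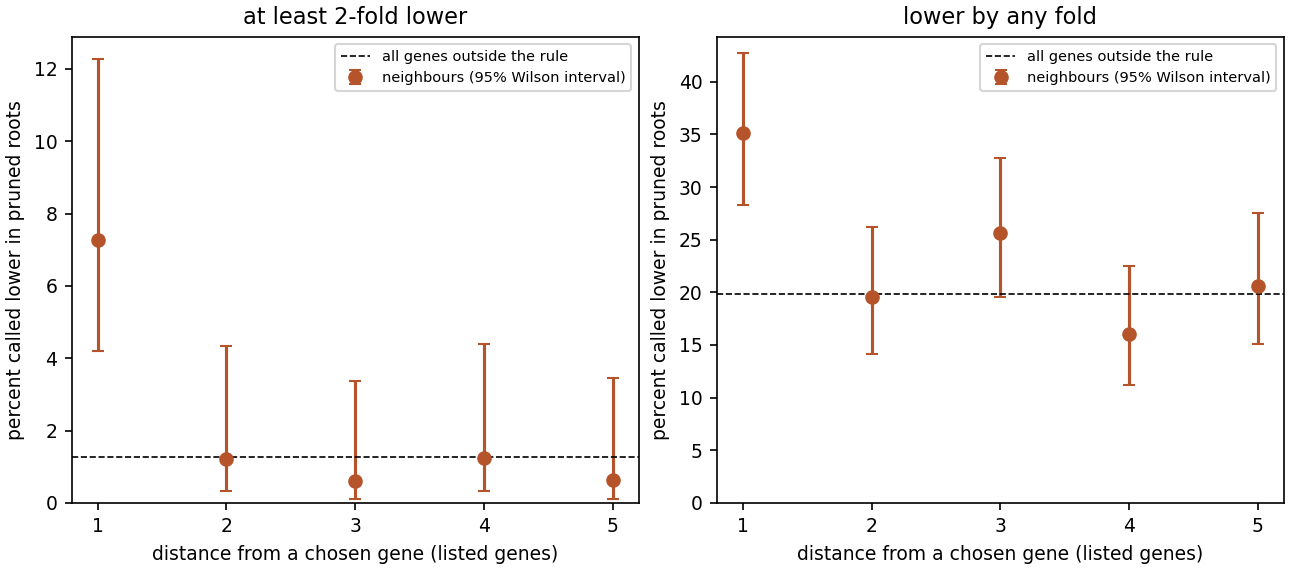
Points are the percent of genes outside the choice that limma called lower in pruned roots, by their distance in listed identifiers from the nearest of the 88 genes, with 95% Wilson intervals, and the dashed line is the percent over all genes outside the choice. The left panel counts falls of at least 2-fold, with 7.27% at a distance of 1 against a line at 1.28%, and the right panel counts falls of any size.

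With these 12 neighbours, 21 of the 88 genes (23.9%) lay in 15 runs of consecutive lowered genes, 12 runs of 2 genes and 3 runs of 3. The runs are built from the choice and the same calls, and no such share is given for other genes, so they are a description. A run of 3 on chromosome 5 had a neighbour in its middle. Bradi5g02800 had 7.29, 7.04 and 6.49 RPM in the pruned libraries and 41.4, 44.5 and 35.9 RPM in the intact libraries. Bradi5g02830 had 4.69, 4.05 and 4.30 RPM in the pruned libraries and 25.6, 25.8 and 21.1 RPM in the intact libraries. Between them Bradi5g02810 was more abundant and kept more, with 66.5, 66.7 and 64.8 RPM in the pruned libraries and 176, 188 and 158 RPM in the intact libraries (log2 fold change -1.39, SE 0.05, limma adjusted p = 5.0e-16). Intact library 3 was the lowest intact library for all 3 genes of this run.

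A run of 3 on chromosome 1 had Bradi1g24790 in its middle, with 19.7, 16.5 and 18.7 RPM in the pruned libraries and 74.9, 75.9 and 72.9 RPM in the intact libraries. Bradi1g24770 before it had a log2 fold change of -1.43 (SE 0.05, limma adjusted p = 9.8e-17). Bradi1g24800 after it was rare, with 1.33, 1.79 and 1.02 RPM in the pruned libraries and 2.72, 3.67 and 3.47 RPM in the intact libraries (log2 fold change -1.02, SE 0.17, limma adjusted p = 2.6e-05). Of the runs of 2 with a neighbour, the largest falls of the neighbour were those of Bradi3g06790 beside Bradi3g06800 (log2 fold change -1.57, SE 0.10, limma adjusted p = 4.2e-12) and of Bradi2g41880 beside Bradi2g41840 (-1.51, SE 0.06, limma adjusted p = 3.5e-16). The other neighbours had log2 fold changes between -1.38 and -1.05.

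In several runs the neighbour was the more abundant gene. Bradi5g23135 had 205, 211 and 218 RPM in the pruned libraries and 555, 556 and 543 RPM in the intact libraries (log2 fold change -1.38, SE 0.04, limma adjusted p = 4.2e-18), beside Bradi5g23140, which kept 13.7%. Bradi4g06536 had 156, 160 and 165 RPM in the pruned libraries and 373, 392 and 332 RPM in the intact libraries (log2 fold change -1.18, SE 0.05, limma adjusted p = 3.7e-15). The chosen gene beside it, Bradi4g06534, was the rarest of the 88 genes in intact roots, with 1.22, 0.669 and 0.490 RPM in the pruned libraries and 4.18, 5.32 and 4.96 RPM in the intact libraries.

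**Figure D5:**
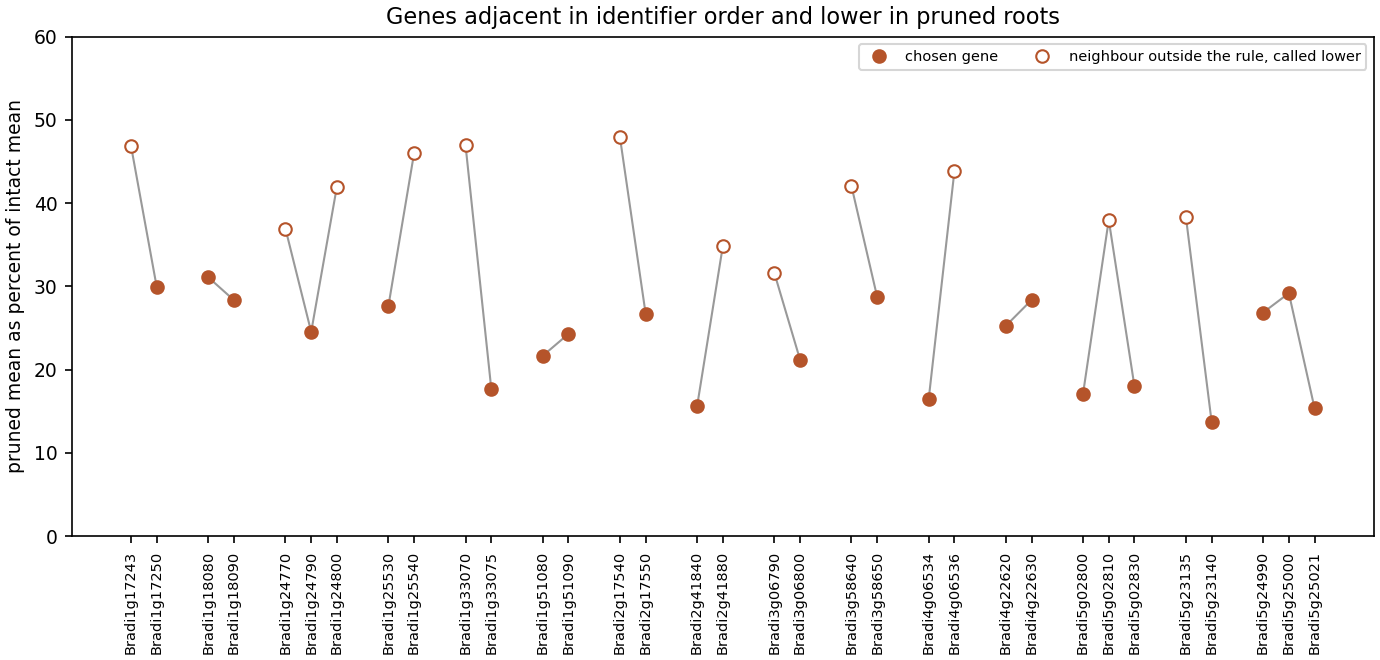
Each point is 1 gene, drawn at its pruned mean as percent of its intact mean, and lines join genes that are consecutive in identifier order. Filled points are strongly lowered genes and open points are neighbours outside the choice that limma called at least 2-fold lower, and the open points lie between 31.6% and 47.9%.

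To ask whether the lowering held in a library that had no part in the choice, the rule was applied to 5 libraries and its genes were then read in the sixth. Without pruned library 1 the rule gave 100 genes, of which 87 were among the 88, and their median in pruned library 1 was 24.9% of the intact mean. Without pruned library 2 it gave 88 genes with a median of 25.1% in that library. These were not the same set, since 84 of them were among the 88 strongly lowered genes. Bradi3g45350, Bradi1g38360, Bradi3g56835 and Bradi4g20127 reached the floor of 1 RPM only in pruned library 2. Without pruned library 3 the rule gave 91 genes, with all 88 among them, and a median of 24.8% in that library. Without intact library 1, 2 or 3 it gave 95, 93 and 89 genes, each time with all 88 among them. In these the pruned mean was at a median of 25.2%, 24.1% and 23.7% of the intact library left out. In each of these percentages the group set against the left-out library was itself part of the choice, so only the left-out side is new. The choices also share most of their libraries. Within these limits, most genes chosen on 5 libraries still met the rule when the sixth was added.

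The exceptions were most frequent for pruned library 1, where 13 genes chosen on the other libraries did not pass, against 4 in pruned library 2 and 3 in pruned library 3. Of the 13 genes, 2 stood above 50% of the intact mean. Bradi1g06851, named after its values were seen, was the most extreme, with 94.6, 28.3 and 31.3 RPM in the pruned libraries and 140, 121 and 139 RPM in the intact libraries. Pruned library 1 is also the only pruned library with paired-end reads. For the 88 genes themselves the log2 difference between pruned library 1 and the mean of pruned libraries 2 and 3 had a median of 0.02, against 0.01 over all genes. It lay between -0.40 in Bradi1g38360 and 0.67 in Bradi4g06534. The 88 genes kept a median of 24.4% of the intact mean in pruned library 1 and of 24.2% in pruned libraries 2 and 3. The choice used all 3 of these libraries, and a part of the read layout in the exceptions was not tested.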

How the data were processed

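Total RNA of roots was sequenced by the authors as 150 nt reads, trimmed, mapped with TopHat to the *B. distachyon* genome and counted per gene from uniquely mapped reads; the submitters' processing notes name HTSeq. The authors deposited RPM of 19538 genes in 6 libraries, and each library sums to 1000000. All 6 columns matched a sample by name. Dividing by the RPM of 1 read gave whole reads for 100% of values within 0.01 of a read.

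The 88 genes, the annotation terms and the tests were chosen with earlier results of these data known. The 2 groups were tested with limma 3.58.1 (R 4.3.3, lmFit and trended eBayes) on log2(RPM + 0.5), two-sided, with Benjamini-Hochberg adjustment over all genes. Fold changes are on that scale, which understates those of rare genes. A call needs an adjusted p of at most 0.05 and, where stated, a 2-fold change. An exact permutation test of 3 against 3 libraries cannot go below 0.1. The genes named are the 10 most abundant, the 10 that kept the least, those next to another chosen gene, those at the thresholds, the annotated genes and the neighbours called lower. Annotations were taken from the study's supplementary terms and, for the universal stress proteins, from its group. For Bradi2g52640 and Bradi3g56360 they are gene names that the study lists elsewhere in its supplement. Annotations printed beside a fold that the RPM do not give were not used. Gene lists by description and promoter motifs were not used here, since 0 identifiers matched the gene reference. Each test was first tested on simulated data. Alternatives were other pseudocounts, quantile normalization, median-ratio scaling, a filter at 1 RPM, untrended limma, edgeR 4.0.16 and DESeq2 1.42.0 on the whole reads, terms for read layout and replicate, other thresholds of the rule, and each library left out. Python 3.11.15 was used for other steps. Wilson intervals are at 95%.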

Additional observations from a re-analysis of the deposited data

How the results depend on the processing

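With a fold threshold of 3, 111 genes were lower and 124 higher, and with none 3941 and 5889. Across pseudocounts, scalings, limma without the trend and a layout term, 287 to 396 genes were lower and 379 to 629 higher. The edgeR quasi-likelihood test on whole reads called 443 lower and 601 higher, DESeq2 444 and 590. With each library left out in turn, 327 to 350 genes were lower and 485 to 510 higher, the rule gave 88 to 100 genes, the difference in summed share was -0.995 to -0.990 percentage points, and 6.67% to 7.27% of neighbours were lower. The rule gave 238 genes when the pruned maximum was at most 1/2 of the intact minimum, 33 genes at 1/4, and 130 genes on the ratio of means. Floors of 0.5 and 2 RPM gave 94 and 77 genes. Median-ratio scaling gave 93 genes and a difference in share of -1.02 in place of -0.992 percentage points. Over neighbours up to 3 listed genes away, 3.04% of 493 were lower. With paired-end libraries only, chosen after seeing the data, the rule gave 98 genes, of which 84 were among the 88. Same-numbered replicates deviated together weakly or not at all (correlations -0.03, 0.20 and 0.08), so the numbers were not taken as pairs. With a replicate block 337 genes were lower, 499 higher and 7.27% of neighbours lower. Reads in the pruned libraries, as few as 10 for a chosen gene, limit the values of the rarest genes.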
